A study of Homo sapiens with 5 samples.

Results

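CREM, the cAMP responsive element modulator gene (ENSG00000095794.19), was examined transcript by transcript in KGN cells, an established human line from a granulosa cell tumour. Its members were all transcripts that carry the gene name CREM in the deposited table, 48 of 179973 transcripts and 1 of 35453 gene names, and they were read singly and as sums. Polyadenylated RNA was measured after 24 h in medium with charcoal-stripped serum and 100 nmol/L androstenedione, the substrate of aromatase, which every group received. The treatments were FSH at 100 ng/mL, forskolin (FSK, an activator of adenylate cyclase and so of protein kinase A, PKA), SC79 at 4 µg/mL (which activates AKT, or PKB) and PMA (phorbol myristate acetate, which activates protein kinase C, PKC). The control received ethanol per the written protocol, while its title reads as untreated. The treatment labels give 10 mmol/L for FSK and 0.1 mmol/L for PMA, and the written protocol has a symbol-font letter for micro in their place. Each group is 1 library made from 270 ng of RNA, a pool of 3 cultures grown in different weeks that gave 90 ng each, so there is no replicate spread and no test across samples. Intervals given with ratios and shares are exact 95% intervals for counting error alone.

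CREM belongs to the CREB family of basic leucine zipper factors, which bind cAMP response elements in promoters as dimers. Its longer proteins carry a kinase-inducible domain, which PKA phosphorylates so that coactivators can bind, and some also carry glutamine-rich segments beside it. Forms with such a segment activate, and forms without one repress. Transcription from a promoter inside the gene, itself turned on by cAMP, gives the inducible cAMP early repressor (ICER), a short protein with little more than the zipper, which occupies the same elements without activating. In granulosa cells FSH acts through a receptor that raises cAMP, and ICER has been described as part of the shut-off of cAMP-induced genes.

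All 48 identifiers were found, with their versions, in GENCODE release 29, which places CREM on the plus strand of chromosome 10, at chr10:35126791-35212958 of GRCh38. The exon for the kinase-inducible domain lies at 35178889 to 35178986, and the exon that begins the zipper at 35206895 to 35207051. By annotated first exon, 37 transcripts started upstream of the domain exon, between 35126791 and 35175853, and 1 started at the domain exon itself (CREM-221, listed at 0 in all 5 libraries). A cluster of 4 transcripts started at 35195127 to 35195147, between domain and zipper exons. This is the ICER start, since its first exon holds the start codon of short zipper proteins of 108 to 121 residues, CREM-228, CREM-236, CREM-237 and CREM-207. A second internal cluster of 6 transcripts started at 35195865 to 35196399, and 5 of them, CREM-238, CREM-230, CREM-224, CREM-203 and CREM-242, encode a zipper without the domain. CREM-225 of that cluster has no annotated protein. Of all 48, 16 encode domain and zipper, 12 the zipper without the domain, 3 the domain without the zipper, 6 a protein with neither, and 11 no annotated protein.

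**Figure D1:**
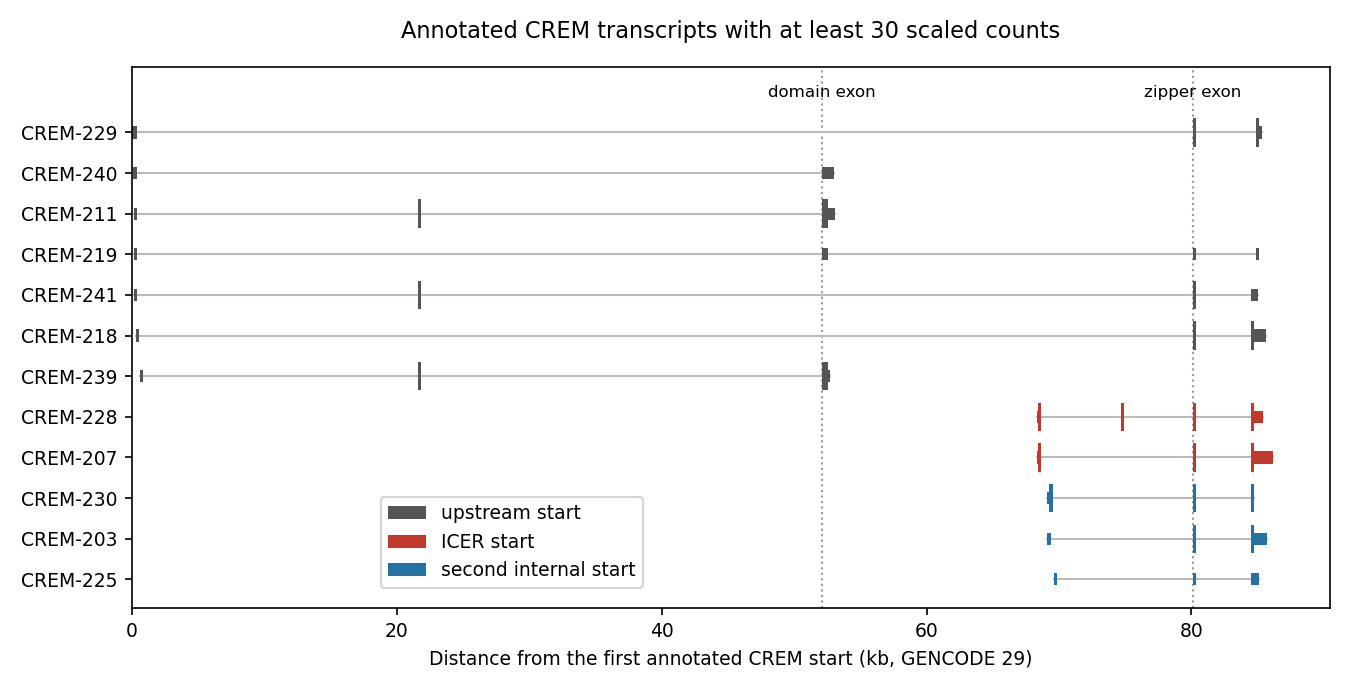
Gene models of the 12 CREM transcripts with at least 30 scaled counts in some library, drawn by distance in kb from the first annotated start (GENCODE 29), with tall boxes for coding and low boxes for noncoding exon parts. The 7 upstream-start models begin at the left edge, and the 2 ICER-start and 3 second-internal-start models begin 68.3 and 69.1 kb downstream or just beyond, past the domain exon.

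The stretches just before these starts are shown because cAMP acts on the internal promoter through short repeats of the cAMP response element. Sequences are RefSeq promoter windows on GRCh38.p14, plus strand, cut so that they end before the first annotated GENCODE start that follows. Capitals mark TGACGTCA, TGATGTCA and TGATGGCA, the full element and variants of it, searched on both strands and chosen with the ICER window in view.
Upstream start, chr10:35126596-35126790: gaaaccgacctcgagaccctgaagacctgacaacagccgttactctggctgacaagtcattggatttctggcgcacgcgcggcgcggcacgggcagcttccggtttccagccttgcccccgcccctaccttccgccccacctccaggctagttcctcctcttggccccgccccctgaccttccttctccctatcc
ICER start, chr10:35194883-35195126: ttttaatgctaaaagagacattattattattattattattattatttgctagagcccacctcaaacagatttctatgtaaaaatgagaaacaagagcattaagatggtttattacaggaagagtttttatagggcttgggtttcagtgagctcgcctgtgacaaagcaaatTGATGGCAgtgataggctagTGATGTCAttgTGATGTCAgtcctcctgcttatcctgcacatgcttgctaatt
Second internal start, chr10:35195652-35195864: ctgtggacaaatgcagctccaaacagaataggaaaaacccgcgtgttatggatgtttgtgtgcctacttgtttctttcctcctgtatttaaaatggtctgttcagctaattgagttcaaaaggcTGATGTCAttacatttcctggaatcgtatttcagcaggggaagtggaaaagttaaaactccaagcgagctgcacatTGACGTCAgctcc

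The ICER window held 3 matches, TGATGGCA 79 bases and TGATGTCA 59 and 48 bases before the RefSeq start at 35195133. The window of the second internal start held TGATGTCA 126 bases and TGACGTCA 50 bases before its RefSeq start at 35195902. Another RefSeq start lies nearby, at 35195850, and its window, not shown, held only the same TGATGTCA, 74 bases before it. The TGACGTCA, at 35195852 to 35195859, lies after that other start. No match lay in the upstream window shown, which precedes the first starts. The window of a later upstream start, RefSeq 35167564, where the barely detected CREM-208 and CREM-248 begin, held TGATGTCA on the minus strand 56 bases before it. Over 35116 windows of 250 bases, 1.65% held TGACGTCA, 2.37% TGATGTCA and 0.618% TGATGGCA, on either strand. At least 2 matches to the 3 words occurred in 59 windows (0.168%) and at least 3 in 5 windows (0.0142%). Because the words were picked from CREM, these shares describe how common the words are and test nothing, and a match is not evidence of a bound factor.

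The coding stretches that tell the forms apart follow, from GENCODE 29 transcripts. In the domain exon, capitals mark the codons of the site whose serine PKA phosphorylates, and in the ICER exon the start codon. The last pair of stretches are the alternative last exons, which encode the rest of the zipper.
Kinase-inducible domain exon, chr10:35178889-35178986: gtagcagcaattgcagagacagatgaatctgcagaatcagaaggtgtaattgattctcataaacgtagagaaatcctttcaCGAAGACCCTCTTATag
ICER first exon, coding part, chr10:35195190-35195214: ATGgctgtaactggagatgacacag
Nearer last exon, coding part, chr10:35211254-35211395: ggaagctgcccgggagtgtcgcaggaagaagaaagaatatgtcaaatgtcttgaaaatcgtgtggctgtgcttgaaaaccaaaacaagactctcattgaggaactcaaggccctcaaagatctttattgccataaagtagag
Farther last exon, coding part, chr10:35211656-35211800: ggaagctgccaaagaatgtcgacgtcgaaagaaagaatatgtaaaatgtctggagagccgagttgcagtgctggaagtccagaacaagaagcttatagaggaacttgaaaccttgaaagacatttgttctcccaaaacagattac

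The ICER exon adds only the first codons of its proteins, and the last exons carry the same bases at 100 of 142 positions compared from their first base (70.4%). All 4 ICER-start proteins lack the domain exon and so this site. This sharing limits how well reads can be assigned. Of 48 transcripts, 29 have no 31-base word of their own, and CREM-228 has 0 own words and 86 of 1152 words (7.47%) found in no CREM transcript outside the ICER-start class. A start class thus has more sequence to itself than most of its single transcripts do, though it can be little. For CREM-207, also of the ICER start, it is 65 of 1865 words (3.49%), and for the upstream CREM-218 76 of 1386 (5.48%). Error of that assignment is not in any interval given here. Strand specificity of the libraries is not stated, and the antisense gene AL392046.1 (35098006 to 35127020, minus strand) overlaps the first upstream exon, where its reads could not be told from those of CREM.

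Library totals ran from 50253128 to 58849719 estimated counts, and scaled counts are estimated counts divided by each library's relative effective size (TMM). Of 10 granulosa markers, 9 reached 100 scaled counts in at least 1 library, with summed levels of 17822 to 52744 over the libraries, and WT1 was near 0 in all of them. Of 8 markers of theca, immune, endothelial and germ cells, 2 reached 100, CD68 and PECAM1, both highest with PMA, and the sums of the 8 ran from 964 to 2898. Whether these markers bear on the CREM values was not tested. As in any bulk RNA, fewer cells of a type and less RNA per cell cannot be told apart.

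As a whole gene, CREM was higher with FSK and near control with the other treatments. Its summed level was 674 scaled counts in the FSH library, 1183 in FSK, 716 in SC79, 827 in PMA and 744 in control. FSK thus stood above every other library, and FSH, SC79 and control lay closest together. The ratio to control was 1.59 (95% interval 1.45 to 1.74) with FSK, 1.11 (1.01 to 1.23) with PMA, 0.963 (0.868 to 1.07) with SC79 and 0.906 (0.817 to 1.00) with FSH, where an interval that holds 1 leaves the 2 libraries apart by no more than counting error. On the authors' normalized signal the PMA value lay on the other side of control (log2 ratio -0.082). Set directly against FSH, FSK was 1.76 (1.59 to 1.93) times as high, and PMA was 0.699 (0.639 to 0.765) times FSK. None of these passed 2-fold, the threshold used here, which needs a log2 ratio of at least 1 in size after a pseudocount of 1 and 100 or more scaled counts in the higher library. Across all genes tested in this way, 4.13% were higher and 5.43% lower with FSK, 3.64% and 3.62% with PMA, 0.305% and 0.104% with FSH, and 0.224% and 0.0401% with SC79. For FSK against FSH the shares were 3.31% and 4.52%, and for PMA against FSK 5.8% and 5.13%.

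The short ICER transcripts differed more between libraries than the gene did. The 4 ICER-start transcripts together had 98.8 scaled counts in the FSH library, 273 in FSK, 80.0 in SC79, 70.7 in PMA and 72.3 in control. The FSK library was far above the other 4, whose counting ranges overlap. The ratio was 3.77 (95% interval 2.92 to 4.90) with FSK, past 2-fold, and 1.37 (1.005 to 1.86) with FSH, whose lower bound lies just above 1. With SC79 it was 1.11 (0.788 to 1.52) and with PMA 0.979 (0.693 to 1.35). FSK was 2.76 (2.18 to 3.51) times FSH, and PMA was 0.259 (0.195 to 0.336) times FSK. Of the 3 start classes with counts it had the lowest ratio of PMA, the PKC activator, to FSK.

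The second internal start also stood higher with FSK, and here FSH and PMA differed from control as well. Its 6 transcripts summed to 143 scaled counts in the FSH library, 211 in FSK, 49.3 in SC79, 122 in PMA and 65.0 in control. FSK was highest, FSH and PMA lay between, and SC79 and control were lowest. Ratios were 2.20 (95% interval 1.64 to 2.96) with FSH, 3.24 (2.45 to 4.29) with FSK, 0.759 (0.517 to 1.12) with SC79 and 1.87 (1.38 to 2.54) with PMA, the first pair past 2-fold. With FSH the call was lost on the authors' normalized signal (log2 ratio 0.97). FSK was 1.47 (1.18 to 1.84) times FSH, and PMA 0.578 (0.459 to 0.728) times FSK. The FSH value rests on CREM-203, which shares its protein and last exons with the upstream transcript CREM-218. Without CREM-203 the ratio with FSH was 1.09 (0.758 to 1.56), no longer past 2-fold, while that with FSK was 2.32 (1.72 to 3.20) and that with PMA 1.65 (1.19 to 2.30). This leave-out was chosen after the values were seen. Both internal clusters together, 10 transcripts, had a ratio of 3.52 (2.91 to 4.25) with FSK and 1.76 (1.43 to 2.17) with FSH, or 3.12 (2.57 to 3.81) and 1.24 (0.985 to 1.56) without CREM-203.

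The 37 upstream-start transcripts, which include 15 of the 16 forms with domain and zipper, differed less between libraries. They summed to 432 scaled counts in the FSH library, 699.6 in FSK, 587 in SC79, 635 in PMA and 606 in control. FSH was lowest and FSK highest, with SC79, PMA and control between. The ratio was 1.15 (95% interval 1.04 to 1.29) with FSK, 1.05 (0.939 to 1.17) with PMA, 0.968 (0.863 to 1.09) with SC79 and 0.712 (0.630 to 0.806) with FSH. None passed 2-fold, and with PMA the authors' normalized signal gave a log2 ratio of -0.17, below control. Leaving out CREM-218 brought the FSH ratio to 0.843 (0.736 to 0.965), nearer to 1, and the ratio of FSK to FSH to 1.32 (1.15 to 1.52), from 1.62 (1.43 to 1.83) with it.

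**Figure D2:**
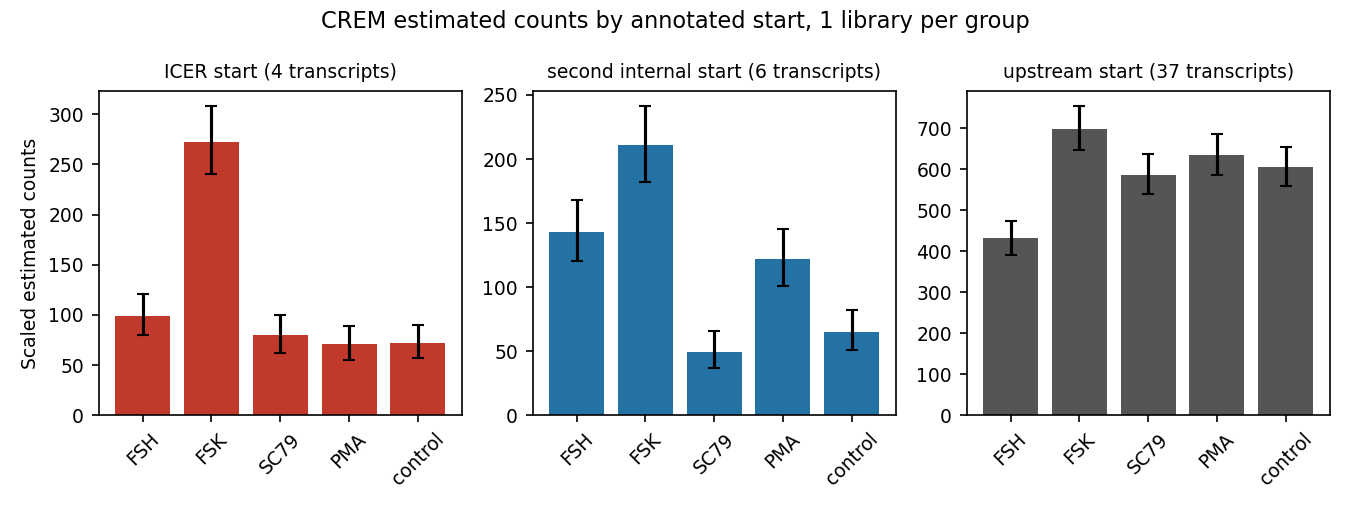
Scaled estimated counts of CREM in each of 5 libraries (bars, linear axes from 0, a separate scale per panel) for the ICER start, the second internal start and the upstream start, with exact 95% Poisson ranges of counting error as error bars. FSK is the tallest bar in all 3 panels, at 273, 211 and 699.6 scaled counts, against 72.3, 65.0 and 606 in control.

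Shares within a library do not depend on scaling. The ICER start took 23.1% (20.6 to 25.6%) of CREM estimated counts in FSK and 14.7% (12.1 to 17.6%) in FSH, against 9.72% (7.80 to 12.0%) in control. In SC79 its share was 11.2% (8.83 to 13.7%) and in PMA 8.55% (6.69 to 10.6%), both overlapping control. The second internal start took 21.2% (18.2 to 24.5%) in FSH, 17.8% (15.6 to 20.1%) in FSK, 6.89% (5.15 to 9.14%) in SC79, 14.7% (12.4 to 17.3%) in PMA and 8.74% (6.91 to 10.9%) in control. Upstream transcripts held the larger part everywhere, from 59.1% in FSK and 64.1% in FSH to 81.9% in SC79, 76.7% in PMA and 81.5% in control. Counted per kilobase of annotated transcript, the ICER share was 17.7% in FSK and 7.28% in control.

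By what the annotated protein holds, the zipper without the kinase-inducible domain, as in ICER, made up the largest class in every library. Its 12 transcripts had 318 scaled counts in the FSH library, 674 in FSK, 328 in SC79, 345 in PMA and 303 in control. FSK stood alone, at 2.22 (95% interval 1.94 to 2.55) times control, past 2-fold, and the other 4 libraries were close together. This class held 56.9% of CREM counts in FSK and 40.8% in control. Its 3 upstream-start members differed from the rest, with 87.9 scaled counts in the FSH library, 216 in FSK, 209.5 in SC79, 182 in PMA and 190.4 in control. FSH was the low library there, at 0.462 (0.356 to 0.597) times control, a value set by CREM-218.

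The 16 transcripts with domain and zipper, which hold both the PKA site and the part that binds DNA, had 45.9 scaled counts in the FSH library, 92.8 in FSK, 36.2 in SC79, 91.0 in PMA and 49.7 in control, with FSK and PMA high and near each other. They were the smaller of the classes that hold the PKA site. Their ratios were 1.87 (95% interval 1.32 to 2.68) with FSK and 1.83 (1.30 to 2.62) with PMA, and 0.925 (0.612 to 1.40) with FSH, all below the minimum of 100 scaled counts. The FSK and PMA sums rest partly on different transcripts, each below 30 scaled counts. CREM-206 had 23.7 in FSK and 0 in PMA, and CREM-205 had 0 in FSK and 19.4 in PMA. The part of read assignment in these sums was not tested. Of the 3 transcripts that hold the same site without an annotated zipper to bind DNA, CREM-211 and CREM-239 end after the domain. CREM-215 is an incomplete model that breaks off in the glutamine-rich segment after it. These 3 had 143 scaled counts in the FSH library, 240.1 in FSK, 168 in SC79, 153 in PMA and 158 in control. FSK was highest, at 1.52 (1.24 to 1.86) times control, and the other libraries overlapped. Transcripts of a protein with neither part had 91.0 scaled counts in the FSH library, 98.2 in FSK, 114 in SC79, 149 in PMA and 109 in control, highest with PMA, at 1.36 (1.06 to 1.74) times control. Those with no annotated protein had 76.1 scaled counts in the FSH library, 78.4 in FSK, 69.7 in SC79, 90.0 in PMA and 123 in control, with control highest, and CREM-240 supplied 64.0 of the control value.

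**Figure D3:**
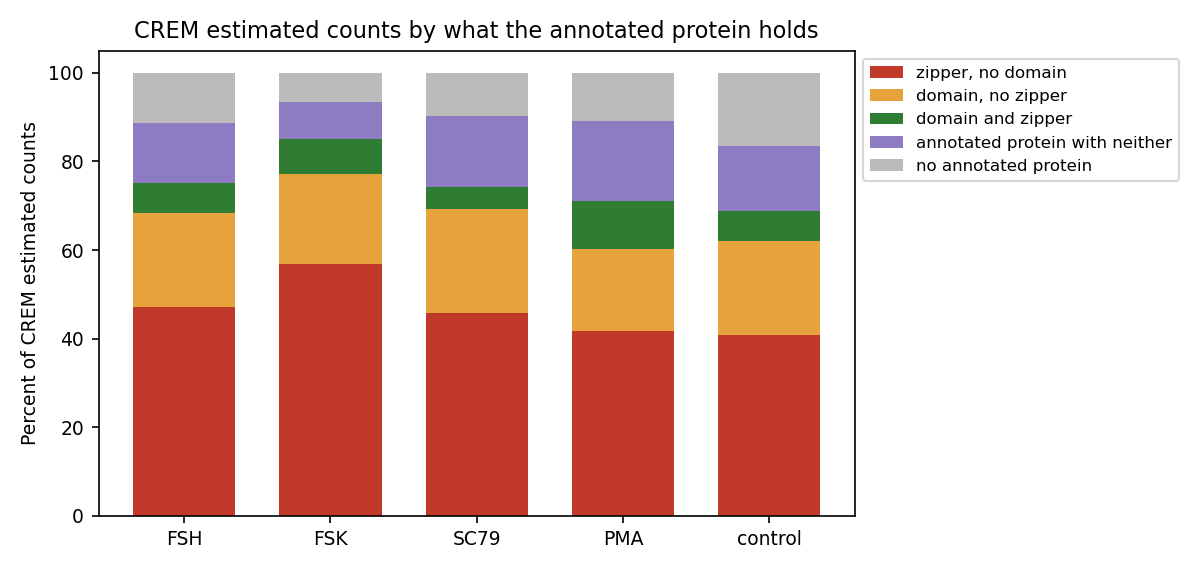
Share of CREM estimated counts (percent, stacked to 100) in each library by whether the annotated protein holds the kinase-inducible domain, the zipper, both or neither. Proteins with a zipper and no domain take 56.9% in FSK and 40.8% in control, and those with both parts are a thin band in every library, from 5.05% in SC79 to 11.0% in PMA.

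The cassette exons gave a finer view of the forms, as sums of whole transcripts that hold them and not of reads over the exons. Transcripts with the gamma exon, a segment of 12 codons (35201451 to 35201486) that ICER can carry or skip, had 54.3 scaled counts in the FSH library, 162 in FSK, 20.5 in SC79, 49.5 in PMA and 52.2 in control. FSK was highest, at 3.11 (95% interval 2.27 to 4.27) times control, and SC79 lowest, at 0.393 (0.216 to 0.656). The ICER form CREM-228, which has 0 own words, supplied 121 of the FSK value, 4.53 of the SC79 value and 35.2 of the control value. The gamma sum is thus not independent of that transcript, and the part of read assignment was not tested. The glutamine-rich segment after the domain (35188200 to 35188388, 63 codons) was held by transcripts with 32.3 scaled counts in the FSH library, 44.4 in FSK, 34.2 in SC79, 30.6 in PMA and 35.8 in control, which overlapped in all 5. The segment before the domain (35175853 to 35175999, 49 codons) was rarer still, at 12.2 scaled counts in the FSH library, 14.1 in FSK, 11.1 in SC79, 20.8 in PMA and 3.73 in control, all from CREM-210 in the treated libraries and from CREM-227, which has no annotated protein, in control. Transcripts that end in the nearer last exon had 408 scaled counts in the FSH library, 785 in FSK, 431 in SC79, 499 in PMA and 419 in control and those that end in the farther one 82.9 scaled counts in the FSH library, 148 in FSK, 86.5 in SC79, 121 in PMA and 83.4 in control. The nearer exon thus led in each library, and FSK was highest for both, at 1.88 (1.67 to 2.11) and 1.77 (1.35 to 2.32) times control. In long models the nearer last exon runs on through the start of the farther one, at 84.865 kb. CREM-218, for example, has it from 84.463 to 85.645 kb. The sets thus share sequence, and the part of read assignment in this split was not tested.

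Single transcripts with at least 30 scaled counts in some library numbered 12. Of those tested with each treatment, 5 of 11 were at least 2-fold higher and 2 lower with FSK, where 10.4% and 11.3% of all tested transcripts were. With FSH 1 of 10 was higher and 2 lower, against 7.27% and 6.26% of all transcripts, and with SC79 1 of 8 was higher and 2 lower, against 8% and 6.25%. With PMA 0 of 10 were higher and 0 lower, against 11.3% and 8.88%. For FSK against FSH 3 of 10 were higher and 1 lower (9.81% and 11.5% of all), and for PMA against FSK 2 of 12 were higher and 5 lower (13.6% and 10.5%). The median log2 ratio of the CREM transcripts tested was 0.62 with FSK, against 0.01 over all transcripts, and between -0.06 and 0.10 with the other treatments.

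Within the ICER start, CREM-228 carries the gamma exon and CREM-207 skips it. CREM-228 (ENST00000473940.5) had 34.4 scaled counts in the FSH library, 121 in FSK, 4.53 in SC79, 31.1 in PMA and 35.2 in control. FSK was high and SC79 low, at 3.45 (95% interval 2.39 to 5.16) and 0.129 (0.0315 to 0.337) times control. CREM-207 (ENST00000356917.9) had 64.4 scaled counts in the FSH library, 124 in FSK, 72.0 in SC79, 39.6 in PMA and 32.1 in control. FSK was again highest, at 3.86 (2.61 to 5.77) times control, followed by SC79 at 2.24 (1.47 to 3.47) and FSH at 2.01 (1.30 to 3.10), the last just short of 2-fold once the pseudocount is added. The SC79 call was lost on the authors' normalized signal (log2 ratio 0.87). The SC79 values of the pair lie on opposite sides of control and their sum does not, while with FSK both were high. CREM-237, the form with the farther last exon, had 27.7 scaled counts in FSK, 0 in FSH, SC79 and PMA, and 4.98 in control, below the minimum of 30, with a ratio of 5.56 (2.24 to 19.8) with FSK.

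Of the second internal start, CREM-230 encodes 112 residues and CREM-203 encodes 95. CREM-230 (ENST00000474931.5) had 38.8 scaled counts in the FSH library, 86.6 in FSK, 25.9 in SC79, 32 in PMA and 28.8 in control. FSK stood above the rest, at 3.00 (95% interval 2.0 to 4.77) times control and 2.23 (1.5 to 3.35) times FSH. CREM-203 (ENST00000344351.5) had 78.7 scaled counts in the FSH library, 74.0 in FSK, 0.00528 in SC79, 24.4 in PMA and 6.00 in control. FSH and FSK were both high on a low control, at 13.1 (5.69 to 31.6) and 12.3 (5.33 to 29.8) times control. CREM-225, a transcript without annotated protein, had 11.8 scaled counts in the FSH library, 25.5 in FSK, 11 in SC79, 30.03 in PMA and 24.5 in control, with no library past 2-fold by the rule.

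CREM-218 (ENST00000460270.5) starts upstream and skips every exon between its first one and the zipper, so that its protein is the 95 residues of CREM-203. It had 48.6 scaled counts in the FSH library, 193 in FSK, 175 in SC79, 119 in PMA and 151 in control. FSH was low, at 0.321 (95% interval 0.230 to 0.447) times control, in the library where CREM-203 was highest. CREM-218 and CREM-203 together had 127 scaled counts in the FSH library, 267 in FSK, 175 in SC79, 144 in PMA and 157 in control. As a sum FSH was no longer apart from control, at 0.809 (0.638 to 1.02), and FSK was highest, at 1.69 (1.39 to 2.07). Only 76 of 1386 words of CREM-218 and 223 of 1595 of CREM-203 belong to their start class alone, and the part of read assignment in the FSH values was not tested.

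CREM-229, a second upstream form with the zipper and no domain, had 39.3 scaled counts in the FSH library, 17.5 in FSK, 34.2 in SC79, 63.3 in PMA and 38.9 in control. PMA was high and FSK low, at 1.62 (1.10 to 2.49) and 0.448 (95% interval 0.246 to 0.828) times control, so that this form went with FSK in the direction opposite to the ICER start. CREM-241, which is annotated as a target of nonsense-mediated decay, the pathway that destroys messages with an early stop codon, had 79.9 scaled counts in the FSH library, 91.2 in FSK, 97.7 in SC79, 142 in PMA and 98.4 in control. PMA was highest, at 1.44 (1.11 to 1.87) times control, and the other libraries overlapped.

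CREM-211 and CREM-239 encode the same protein of 137 residues, which ends after the domain, and their sum was 134 scaled counts in the FSH library, 232 in FSK, 163 in SC79, 153 in PMA and 157 in control. FSK was highest, at 1.48 (95% interval 1.21 to 1.82) times control. Alone, CREM-211 had 92.0 scaled counts in the FSH library, 151 in FSK, 100.0 in SC79, 92.5 in PMA and 98.1 in control, and CREM-239 had 41.9 scaled counts in the FSH library, 80.3 in FSK, 62.9 in SC79, 60.5 in PMA and 58.6 in control. FSK was highest for each, with no library past 2-fold.

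The remaining pair has no annotated protein. CREM-240, a processed transcript that ends after the domain exon, had 17.7 scaled counts in the FSH library, 0 in FSK, 18.3 in SC79, 43.2 in PMA and 64.0 in control. Control was highest, and FSK, with no count, was at least 20.4-fold lower, taking 3 counts as the floor in that library. FSH and SC79 were at 0.277 (0.157 to 0.475) and 0.286 (0.155 to 0.481) times control. CREM-240 has 0 of 992 words of its own, and its exons lie almost wholly within those of CREM-211. CREM-211 had 151 scaled counts in FSK and 98.1 in control, the opposite direction. The part of read assignment in the values of CREM-240 and CREM-211 was not tested. CREM-219, which reaches the farther last exon, had 24.7 scaled counts in the FSH library, 42.9 in FSK, 29.9 in SC79, 9.59 in PMA and 21.0 in control. FSK was highest and PMA lowest, with FSK at 2.05 (95% interval 1.19 to 3.55) times control. That value lies at the threshold, and other scalings took it below (log2 ratios of 0.84 to 0.99).

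**Figure D4:**
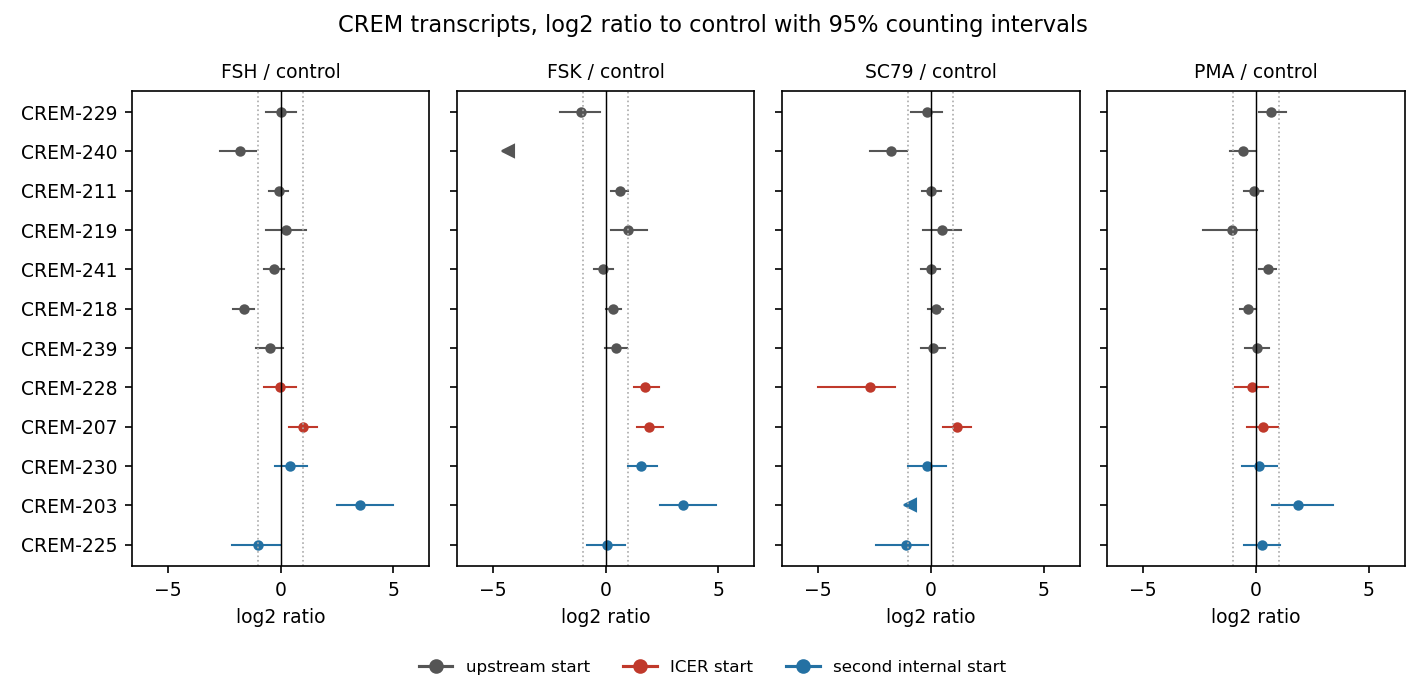
Log2 ratio to control of the 12 CREM transcripts with at least 30 scaled counts, a panel per treatment, with lines for 95% counting intervals, triangles for bounds where the treated library has no count, and dotted lines at 2-fold. With FSK the 2 ICER-start and 2 of 3 second-internal-start transcripts lie right of the 2-fold line, and with PMA no transcript that reached 30 counts in either library lies past it (CREM-203 and CREM-219 did not reach 30).

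The other 36 transcripts stayed below 30 scaled counts, 8 of them at 0 in all 5 libraries and 28 above 0 in at least 1, with a highest value of 27.7. Among them is CREM-210, the one domain-and-zipper form detected with the first glutamine-rich exon, at 12.2 in FSH, 14.1 in FSK, 11.1 in SC79, 20.8 in PMA and 0 in control. CREM-206, a domain-and-zipper form with the gamma exon, had 23.7 in FSK and at most 2.0 elsewhere. Its ratio with FSK, on 1.95 scaled counts in control, was 12.1 (3.24 to 115), outside counting error, as the value of CREM-237 was. None of the 36 was called, and the error of assignment is in none of these intervals.

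The authors' deposited table, which holds per transcript a log2 fold change with raw and adjusted p, called few CREM transcripts. With FSK it had 1 of 48 at an adjusted p below 0.05, CREM-240 with a log2 fold change of -9.06 (adjusted p = 0.00311), where 1.09% of all transcripts were called higher and 1.11% lower. With PMA the authors' deposited table had 3 higher, CREM-210 (log2 fold change 7.39), CREM-205 (7.29) and CREM-242 (7.1), with adjusted p of 0.031, 0.0357 and 0.0472, against 1.11% higher and 1.06% lower overall. Those 3 had 17.0 to 20.8 scaled counts with PMA and 0 in control. With FSH and SC79 the authors' deposited table had 0 called, where 0.948% and 0.998% of all were called higher and 0.851% and 0.845% lower, although 8 and 7 had an unadjusted p below 0.05. The ICER forms CREM-228 and CREM-207 had log2 fold changes of 1.78 and 1.94 with FSK in the authors' deposited table, with adjusted p of 0.852 and 0.736. The same table's LH comparison, for which no library is used here, had 3 called higher and 1 lower, against 1.61% and 1.13% of all transcripts. How the table obtained a dispersion from 1 library per group is not given in the sources used here.

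The partners of CREM in the pathway, from lists chosen with earlier results of these data known, gave the setting for these values. The 8 relatives that share its zipper family had a median log2 ratio of -0.10 with FSK, against 0.01 over all genes, and 0 of 8 passed 2-fold in any comparison with control. CREBL2, a CREB-like protein, was the highest with FSK at 0.31, followed by CREB3 at 0.05, and CREB5 (-0.64) and ATF4 (-0.24) were lowest. CREB1, an activator that binds the same elements, had 4073 scaled counts in FSK and 4158 in control. With FSH the extremes were ATF7 at 0.08 and ATF1 at -0.14, and with PMA CREBL2 at 0.45 and CREB5 at -0.47. The ICER start had 1.90 on the same scale with FSK.

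Of 7 coactivators 6 could be tested and none passed 2-fold with any treatment. FHL5, known in mouse testis as a partner through which CREM activates without phosphorylation, was listed at 0 in all libraries. With FSK CRTC1 (0.23) and CRTC3 (0.11) were the highest, both members of the CRTC family that SIK kinases keep in the cytoplasm, and FHL2 (-0.43) and CREBBP (-0.11) the lowest. CRTC3 was highest with FSH (0.06) and CREBBP lowest (-0.07). With PMA these were CRTC2 (0.30) and FHL2 (-0.32).

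Of 16 kinases, kinase inhibitors and regulatory subunits 15 could be tested. With FSK 1 of 15 was past 2-fold higher and 1 lower, where 4.13% and 5.43% of all genes were. SIK1, a salt-inducible kinase that is itself a cAMP target, had 2919.6 scaled counts in FSK and 529 in control (log2 ratio 2.46). SIK2 followed at 0.99. CAMK4, a calcium-dependent kinase of CREB, was lowest, with 692 scaled counts in FSK and 1429.6 in control (log2 ratio -1.05), and RPS6KA1 was next at -0.75. With PMA 0 of 15 were past 2-fold higher and 3 lower (3.64% and 3.62% of all genes), PRKAR2B (-1.47), a regulatory subunit of PKA, RPS6KA1 (-1.27) and CAMK4 (-1.15), and PKIA, an inhibitor of PKA, was the highest at 0.91. With FSH none passed, and SIK1 (0.40) and PRKAR2B (-0.19) were the extremes.

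Genes with reported regulation through the cAMP element, or reported repression by ICER, had the median furthest from control of the 4 lists with FSK, FSH and PMA, and the nearest with SC79. The lists overlap, since SIK1 is also among the kinases and CREB1 among the relatives. With FSK 16 of 23 tested passed 2-fold upward and 3 downward (4.13% and 5.43% of all genes), with a median log2 ratio of 2.46. PDE3A, a phosphodiesterase that degrades cAMP, had 1376 scaled counts in FSK and 22.0 in control (log2 ratio 5.90), and CYP19A1, which encodes aromatase, had 27444 scaled counts in FSK and 902 in control (log2 ratio 4.93). BCL2, an inhibitor of apoptosis, had 26.2 scaled counts in FSK and 178 in control (log2 ratio -2.72), and CCNA2, cyclin A, had 1005 scaled counts in FSK and 4136 in control (log2 ratio -2.04). With FSH 5 of 20 were higher and 0 lower (0.305% and 0.104% of all genes), with a median of 0.33, from CCNA2 at -0.35 to STAR, which carries cholesterol into mitochondria, at 1.80. With PMA 8 of 22 were higher and 1 lower (3.64% and 3.62% of all genes), with a median of 0.84, from CCNA2 at -1.35 to STC1, the hormone stanniocalcin, at 6.18, and the ICER start was level with control there. With SC79 0 of 19 passed, higher or lower (0.224% and 0.0401% of all genes), with a median of -0.03. These comparisons share the control library, so that the libraries' order over lists is not independent.

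**Figure D5:**
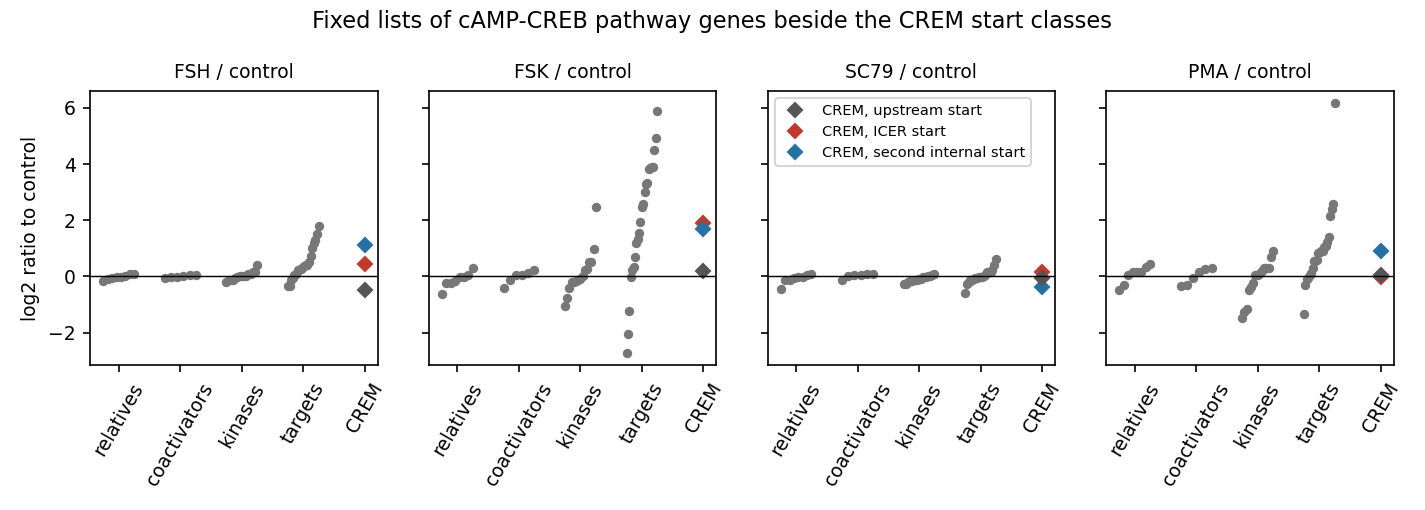
Log2 ratio to control of the tested genes in 4 lists of the cAMP and CREB pathway (grey points) and of the 3 CREM start classes (diamonds), a panel per treatment. With FSK the ICER start (1.90) and the second internal start (1.68) lie among the target genes, whose median is 2.46, and above every relative and coactivator. The upstream start (0.21) lies within the range of all 4 lists.

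By Euclidean distance over the 4 log2 ratios to control, among 12845 genes with at least 100 scaled counts in some library, the genes closest to the ICER start were DLGAP1 (0.225), POLRMTP1 (0.255), CIITA (0.273), PDK4 (0.344) and FAT1 (0.365). CIITA is the master regulator of MHC class II genes and PDK4 a kinase that restrains pyruvate dehydrogenase. Each was 1.66 to 2.03 on the log2 scale with FSK and between -0.21 and 0.17 with PMA. Closest to the gene sum were JKAMP (0.0873), C11orf70 (0.107), SYNJ1 (0.113), HIF1A (0.127) and ELOVL4 (0.132), with log2 ratios of 0.55 to 0.75 with FSK. The second internal start had more distant neighbours, CCDC184 (0.499), DAW1 (0.549), SPINT1 (0.591), PARM1 (0.682) and TMTC1 (0.698). Likeness over 4 ratios that share a control library describes these libraries and no common regulation.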

How the data were processed

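The report covers 5 RNA libraries of KGN cells, 1 per group, with polyadenylated RNA fragmented to a mean of 200 nt and sequenced as paired ends, per the labels. Reads were handled with Trimmomatic, kallisto and edgeR, per the submitters' processing notes, and the sources used here give no versions, build or index. The main deposited table holds the authors' estimated counts by transcript and library, not normalized. They also deposited a normalized signal, the authors' estimated counts multiplied by 1 constant per library. The authors' comparison table holds, by transcript, a log2 fold change with a raw and an adjusted p-value for each treatment, and for LH, against control.

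CREM transcripts, the start classes, the protein classes and the lists were chosen with earlier results of these data known. Estimated counts were added up by gene name or class, and rounded for scaling factors (TMM, edgeR 4.0.16, R 4.3.3, on gene sums) and for intervals. A recovery check on simulated data preceded this. A pseudocount of 1 scaled count entered each log2 ratio. A ratio past 2-fold needed 100 scaled counts for a gene or class, and 30 for a transcript, in the library where it was higher. Ratios have exact conditional binomial, and shares Clopper-Pearson, 95% intervals. Both, and the floor of 3 counts, cover counting error only, because reads that carry no molecular identifiers need not come from separate molecules. Library totals of 50253128 to 58849719 counts set the precision.

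The rule written for internal starts took the start cluster nearest to the zipper exons. In GENCODE 29 that is the second internal start, while the annotated ICER first exon is the next cluster upstream, so both are given, singly and summed, a choice made after the annotation was read. Transcripts described one by one are those with at least 30 scaled counts in a library. Pathway genes named are the 2 highest and 2 lowest with FSK and the extremes with FSH and PMA, and the 5 genes nearest in pattern are named for the gene sum and each internal start. Promoter windows and words of 31 bases were read from RefSeq and GENCODE 29. Calculations used Python 3.11.15, numpy 2.4.6, pandas 2.3.3 and scipy 1.17.1, plots matplotlib 3.10.9, and alternative size factors DESeq2 1.42.0. Alternatives were other scalings, pseudocounts, minimums and thresholds, coding transcripts alone and levels per kilobase.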

Additional observations from a re-analysis of the deposited data

Results flagged for a closer look

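A comparison of LH with control is in the authors' deposited table, with no LH library among the 5 used here, and 4 CREM transcripts in it had an adjusted p below 0.05, where 1.61% of all transcripts were called higher and 1.13% lower. The authors' deposited table gives log2 fold changes of 8.6 for CREM-210 (adjusted p = 0.00381), a form with kinase-inducible domain and zipper, 7.31 for CREM-232 (adjusted p = 0.0295), a transcript that retains an intron, and 4.44 for CREM-203 (adjusted p = 0.0268), a short form from the second internal start. It gives -9.06 for CREM-240 (adjusted p = 0.00152), which has no annotated protein. CREM-240 also had -9.06 with FSK in the authors' deposited table. No level, interval or read count of the LH library was available for these values, and what sets them apart was not tested.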

How the results depend on the processing

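No ratio past 2-fold changed sign under any alternative, while several nearer to control did. With 1 library per group no library could be left out. No paired analysis was possible because each group has 1 library. Scaling by library totals or by DESeq2 size factors and pseudocounts of 0.5 or 5 kept every ratio of the gene sum and start classes on its side of 2-fold and within its interval, 30 of 30 for each. The authors' normalized signal, which shifts the median of all genes by -0.16 with FSH, -0.16 with FSK, -0.28 with SC79 and -0.25 with PMA on the log2 scale, gave log2 ratios of -0.30, 0.50, -0.33 and -0.082 for the gene sum with these treatments in the same order, and of 0.035 (FSK), -0.32 (SC79) and -0.17 (PMA) for the upstream start. The gene sum and upstream start with PMA and the ICER start with SC79 (-0.13) thus lay below control on that signal and above it otherwise, and the second internal start with FSH fell short of 2-fold at 0.97. Scaling by library totals put the ICER start with PMA at 0.033, above control. Coding transcripts alone gave 1.67 (FSH) and 2.17 (FSK) for the second internal start and took it past 2-fold for PMA against FSK (-1.01). With PMA against control they gave it 1.16. That value was not a call, because the coding sum in PMA lay below the minimum of scaled counts for a class. Coding transcripts alone also took both internal starts together past 2-fold with FSH (1.02), with SC79 there at 0.069, above control. Of single transcripts, CREM-219 with FSK lost its call by library totals (0.98), DESeq2 size factors (0.99), the authors' signal (0.84) and a pseudocount of 5 (0.88), CREM-207 with SC79 lost it on the authors' signal (0.87), and CREM-229 with FSK (-0.97) and for FSK against FSH (-0.98) at a pseudocount of 5.

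Without CREM-203 and CREM-218, chosen after seeing the data, the second internal start had log2 ratios of 0.12 (FSH against control), 1.2 (FSK against control) and 1.08 (FSK against FSH). Both internal starts had 0.31 (FSH against control) and 1.32 (FSK against FSH), and the upstream start -0.25 (FSH against control), 0.40 (FSK against FSH) and 0.025 (PMA against FSK), the last of the opposite sign to the value with them (-0.14). A minimum of 100 scaled counts per transcript left 0 higher and 1 lower with FSH, 2 higher and 0 lower with FSK, 0 and 0 with SC79, 0 lower for FSK against FSH, and 0 higher and 2 lower for PMA against FSK, since fewer transcripts were tested. The share of all genes called at 1.5-fold in place of 2-fold was 0.73% higher and 0.297% lower for FSH against control, 9.15% higher and 10.8% lower for FSK against control, 0.729% higher and 0.384% lower for SC79 against control, 8.17% higher and 9.2% lower for PMA against control, 7.72% higher and 9.6% lower for FSK against FSH, 11.9% higher and 10.5% lower for PMA against FSK. With a minimum of 20 scaled counts in place of 100 it moved by over 1.5 times to 0.923% higher and 0.516% lower for FSH against control, 0.806% higher and 0.481% lower for SC79 against control. The share of all transcripts at 1.5-fold was 13.5% higher and 11.7% lower for FSH against control, 19.2% higher and 19.6% lower for FSK against control, 15% higher and 11.4% lower for SC79 against control, 20.8% higher and 16.6% lower for PMA against control, 18.1% higher and 19.9% lower for FSK against FSH, 23.2% higher and 18.1% lower for PMA against FSK. With a minimum of 100 in place of 30 it moved by over 1.5 times to 3.61% higher and 2.98% lower for FSH against control, 4.00% higher and 3.07% lower for SC79 against control, 7.34% higher for PMA against control.

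Per kilobase of annotated length the ICER start took 9.61% of CREM in FSH, 17.7% in FSK, 7.38% in SC79, 5.88% in PMA and 7.28% in control, and per kilobase of effective length 8.49%, 16.3%, 7.20%, 5.31% and 6.77% in the same order. For the second internal start these were 23.3% (FSK), 10.7% (SC79), 20.4% (PMA) and 12.1% (control) by annotated length, and 25.5%, 12.0%, 23% and 13.3% by effective length. Coding transcripts alone gave it 11.1% in PMA and 5.44% in control. Depth limits what single transcripts show, with most below 30 scaled counts, and the error of read assignment among transcripts with no sequence of their own is not measured.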
